A study of Mus musculus with 9 samples.

Results

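Dense clusters of XBP1 peaks were defined as fixed 100 kb windows of the mouse autosomes with 10 or more XBP1 peaks in liver taken 6 h after partial hepatectomy. The windows started at position 1, 100001 and so on of the mm9 genome, and each peak was assigned by its midpoint. Of the 8146 autosomal windows with at least 1 peak of that library, 134 (1.64%) met the rule. They held 1585 of its 21813 autosomal peaks (7.27%) and lay on all 19 autosomes. Because the peak numbers of that library chose the windows, they are given as a description with no test. The number of windows depended on how finely peaks had been called: with peaks within 500 bp of each other joined, 85 windows reached 10.

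XBP1 was mapped by chromatin immunoprecipitation and sequencing in livers of C57Bl6-J mice labelled wildtype, with 1 library per condition. The unsilenced livers were basal, 6 h or 48 h after partial hepatectomy (removal of most of the liver), and 6 h or 48 h after a sham operation. In 3 further libraries XBP1 had been silenced for 7 days by shXBP1, a short hairpin RNA delivered by an adenovirus injected into the tail vein. They match the basal state and both times after hepatectomy. Surgery took place at 8 weeks of age. Per the labels' protocols, clodronate liposomes preceded the virus and a control virus against LacZ existed, but the labels do not tell whether the unsilenced livers received either, or how many animals made up a library. The series asked where XBP1 sits on chromatin while the liver regenerates. With 1 library per condition no spread between animals could be measured, so every value describes these libraries, and 95% Clopper-Pearson intervals cover counting error only.

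XBP1 is a basic leucine zipper transcription factor of the unfolded protein response. The endoplasmic reticulum (ER) sensor IRE1 splices its messenger RNA under ER stress, and the spliced form drives genes for chaperones, protein folding, degradation and transport. Hepatocytes secrete most plasma proteins, among them the acute-phase proteins whose output rises after surgery or inflammation. Their genes often lie in families side by side.

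The lists differed in length. They held 22071 peaks for the 6 h hepatectomy library and 23087 for the 6 h sham library, 7212 and 4622 for the 48 h hepatectomy and sham libraries, and 2482 for basal liver. The silenced lists held 4325 peaks at 6 h, 177 in basal liver and 102 at 48 h. The silenced basal and silenced 48 h lists stood apart, since their peaks inside the dense windows had median widths of 129 bp and 119 bp, against 293 bp to 455 bp in the other 6 lists. Results for those 2 lists are given separately from the rest. Read depth is unknown, so fewer sites and shallower sequencing cannot be told apart when lists are compared.

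No genome of the mm9 build was at hand, so the sequence under the peaks is not shown. To show what the regulatory sequence of genes in these windows looks like, the 250 bases upstream of the transcription start are printed for 6 of them. These are the 3 fibrinogen genes of the window with most peaks, Apoa1 of the apolipoprotein window, and P4hb and Cebpb, whose upstream sequence holds letters found in XBP1 motifs. Sequences are from RefSeq on GRCm38.p6, in lower case and 5′ to 3′ along the gene. Capitals mark CCACG, the second part of the ER stress response element, on either strand (CGTGG on the other), and ACGT, the core of the unfolded protein response element, which is its own reverse complement and can share letters with CCACG.
Fgg, chr3:83007474-83007723, plus strand: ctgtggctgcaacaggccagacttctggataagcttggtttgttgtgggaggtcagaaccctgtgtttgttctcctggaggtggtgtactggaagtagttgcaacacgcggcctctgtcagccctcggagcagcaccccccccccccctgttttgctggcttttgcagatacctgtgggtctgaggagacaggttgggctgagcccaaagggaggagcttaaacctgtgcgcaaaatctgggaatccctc
Fga, chr3:83025903-83026152, plus strand: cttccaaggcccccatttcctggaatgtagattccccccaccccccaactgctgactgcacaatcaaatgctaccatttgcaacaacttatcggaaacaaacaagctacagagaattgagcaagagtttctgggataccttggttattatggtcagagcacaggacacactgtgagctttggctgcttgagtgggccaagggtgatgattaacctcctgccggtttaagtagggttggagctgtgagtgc
Fgb, chr3:83049864-83050113, minus strand: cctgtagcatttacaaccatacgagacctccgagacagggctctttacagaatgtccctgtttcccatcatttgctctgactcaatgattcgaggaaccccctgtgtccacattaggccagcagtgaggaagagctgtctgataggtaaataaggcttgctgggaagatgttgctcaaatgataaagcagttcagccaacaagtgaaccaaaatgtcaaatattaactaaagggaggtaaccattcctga
Apoa1, chr9:46228380-46228629, plus strand: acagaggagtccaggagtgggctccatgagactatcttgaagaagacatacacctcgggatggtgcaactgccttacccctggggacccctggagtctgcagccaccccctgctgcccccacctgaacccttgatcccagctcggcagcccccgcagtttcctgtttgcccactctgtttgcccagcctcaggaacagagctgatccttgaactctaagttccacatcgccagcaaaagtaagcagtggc
P4hb, chr11:120573254-120573503, minus strand: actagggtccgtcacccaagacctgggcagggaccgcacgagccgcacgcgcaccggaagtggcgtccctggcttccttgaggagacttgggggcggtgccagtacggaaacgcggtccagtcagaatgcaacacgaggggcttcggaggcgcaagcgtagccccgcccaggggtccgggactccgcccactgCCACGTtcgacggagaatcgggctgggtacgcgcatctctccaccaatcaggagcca
Cebpb, chr2:167688665-167688914, plus strand: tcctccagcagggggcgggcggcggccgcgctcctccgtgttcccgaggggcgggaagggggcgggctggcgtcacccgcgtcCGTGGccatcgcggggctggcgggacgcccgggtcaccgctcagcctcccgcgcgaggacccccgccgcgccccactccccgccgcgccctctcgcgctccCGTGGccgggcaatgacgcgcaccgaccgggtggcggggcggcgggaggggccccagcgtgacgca

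None of the 3 fibrinogen sequences and not the Apoa1 sequence held CCACG or ACGT in this stretch. That of P4hb held 1 of each, overlapping in CCACGT, and that of Cebpb held 2 copies of CCACG on the other strand. P4hb and Cebpb were printed for such letters, so their contrast with the other sequences was set by the choice. Over all 32851 RefSeq upstream sequences of the same length, CCACG was found in 28.3% and ACGT in 26.9%. The full ER stress response element (CCAAT, 9 bases of any kind, then CCACG), searched on both strands, was in none of the 6 and in 0.113% of all. A match or its absence in these letters says nothing about binding of the factor, and the GRCm38.p6 sequences were not placed on the mm9 peaks.

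The dense windows were crowded in both 6 h libraries and held few peaks in all others. Per window, the 6 h hepatectomy library had from 10 to 35 peaks with a median of 11, and the 6 h sham library, which had no part in the choice, had from 5 to 23 with a median of 10. The median was 3 peaks at 48 h after hepatectomy (range 0 to 8), 2 at 48 h after the sham operation (0 to 8) and 1 in basal liver (0 to 5). In the silenced 6 h library the median was 2 (0 to 7). These other lists were shorter as a whole.

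**Figure D1:**
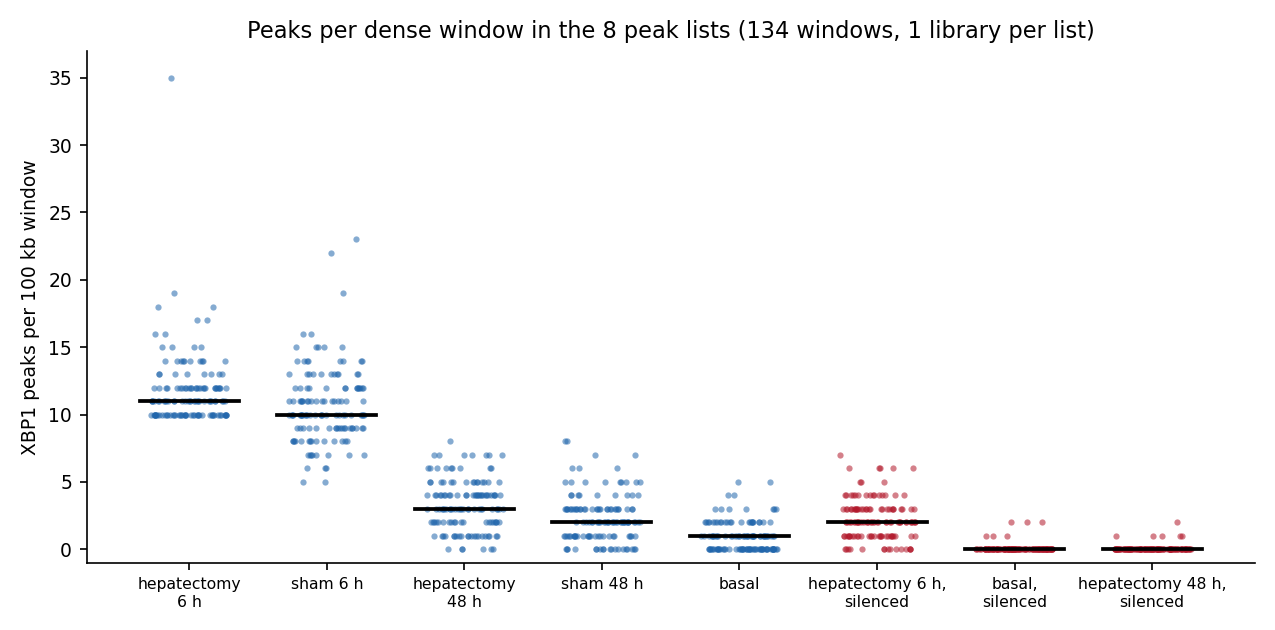
XBP1 peaks per 100 kb window (y axis) in each of the 8 lists (x axis) for the 134 dense windows, 1 point per window with horizontal jitter, unsilenced lists in blue, silenced lists in red and the median as a black line. The windows hold medians of 11 and 10 peaks in both 6 h lists and of at most 3 in the others.

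In total the windows held 1429 sham peaks at 6 h, 441 hepatectomy and 313 sham peaks at 48 h, and 128 basal peaks. The silenced 6 h list had 302 peaks there. The silenced basal and silenced 48 h lists had 9 and 7. As a share of each list's own autosomal peaks, the windows held 6.25% (5.94 to 6.57%) of the 6 h sham peaks, 7.02% (6.28 to 7.83%) of the silenced 6 h peaks and 6.83% (6.11 to 7.59%) of the 48 h sham peaks. The share was 6.16% (5.62 to 6.75%) at 48 h after hepatectomy and 5.20% (4.35 to 6.15%) in basal liver. No basal peak was called in 58 of the 134 windows (43.3%), no silenced 6 h peak in 15 (11.2%), no 48 h sham peak in 19 (14.2%) and no 48 h hepatectomy peak in 6 (4.48%). Among all autosomal windows with a 6 h hepatectomy peak, which mostly hold fewer peaks, those shares were 75.1%, 61.1%, 60.2% and 46.1%. The silenced basal list had no peak in 128 windows and the silenced 48 h list none in 128, against 98.6% and 99.0% of all such windows.

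By their own peaks the dense windows were ordinary in score. The authors' score of a peak is taken here to rise with the evidence for it and is used only within a list. It had a median of 19.53 in the windows and 19.02 in the other autosomal peaks of the 6 h hepatectomy list. In the sham list the medians were 17.39 and 16.32. The median peak was 455 bp wide in the windows and 428 bp elsewhere, and in the sham list 450 bp and 410 bp. Of the windows, 7 had a peak among the 100 highest-scoring of the hepatectomy list and 48 had one among the 1000 highest-scoring. A window with more peaks has more chances to hold such a peak. By peak, 4.10% of those inside were among the 1000 highest-scoring, against 4.57% of those outside. The best peak of a window ranked from 6 to 8099 in that list, with a median rank of 1641.5.

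Peaks in the windows lay close together, as windows chosen for many peaks must. In the windows the median gap from a 6 h hepatectomy peak to its nearest neighbour was 1265 bp, and 708 of the 1585 peaks (44.7%) had a neighbour within 1 kb. Peaks together covered from 3.85% to 21.9% of a window, with a median of 5.73%. In the sham list, which did not choose the windows, the median gap was 1430 bp inside and 6895 bp outside them, and 39.7% and 20.2% of the peaks had a neighbour within 1 kb. The windows were also rich in sham peaks, with a median of 10, and gaps were not compared at equal peak density. The gaps of either list therefore show no spacing beyond that density. The smallest gap was 52 bp in both lists, so some neighbours may be parts of 1 region split in calling, which was not tested.

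The window with most peaks lay on chromosome 3 (82800001 to 82900000), where the fibrinogen genes Fgg, Fga and Fgb lie by general knowledge of mm9. No annotation of that build was at hand, so this and the other gene names of windows are unverified. They encode the 3 chains of fibrinogen, the clotting protein of plasma and an acute-phase protein. It had 35 peaks 6 h after hepatectomy and 23 at 6 h after the sham operation, then 4 and 3 at 48 h, none in basal liver, 3 in the silenced 6 h library and none in both other silenced lists. The next window had 19.

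The 35 peaks ran from 82806381 to 82858268, a stretch of 51888 bp, and left the rest of the window empty in that list. Their median gap was 601.5 bp, and 24 of the 34 gaps were 1 kb or less. They covered 21.9% of the window, the highest share among the 134. Joining peaks within 500 bp left 20. Their scores were mostly low: the median score of 11.72 was the lowest of the 134 windows, and 1 of the 35 was among the 2207 highest-scoring of the list (the upper 10%). That peak, at 82806381 to 82807798 (score 113.6, rank 1142), was the only one of the 35 with a counterpart in both 48 h lists, and it had one in the 6 h sham and silenced 6 h lists too. Of the 35, 22 overlapped a 6 h sham peak, where 77.0% of all autosomal peaks of the library did. Of the 35, 16 overlapped a sham peak and no peak in any further list, where 40.4% of the peaks outside the dense windows did.

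**Figure D2:**
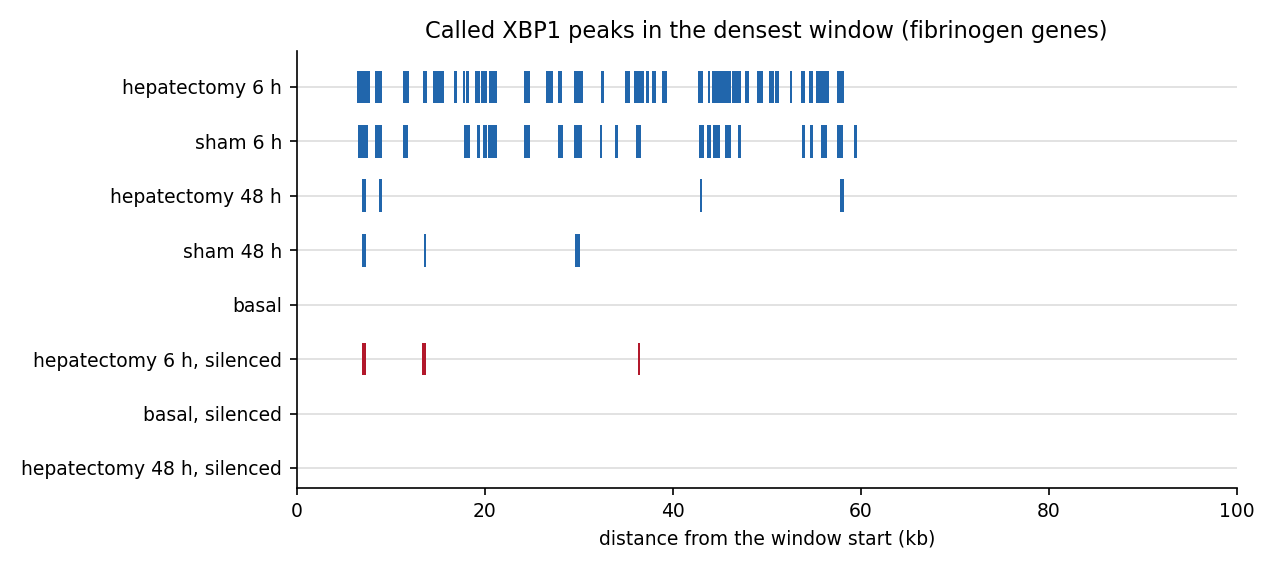
Called peaks (bars, drawn to scale) in the window with the fibrinogen genes, as distance in kb from the window start (x axis), with 1 row per list. The 35 hepatectomy and 23 sham peaks at 6 h fill the same stretch, and 3 or 4 peaks are left in either 48 h list and 3 in the silenced 6 h list.

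Of the 24 liver loci listed for this study, 12 were placed in dense windows from general knowledge of the mm9 assembly. Together the 12 windows held 171 peaks 6 h after hepatectomy and 152 at 6 h after the sham operation, and 48 and 28 at 48 h. They held 13 peaks in basal liver, 29 in the silenced 6 h list, 2 in the silenced basal list and 1 in the silenced 48 h list. The list was written with earlier results of these data known. Its entries not placed in a dense window were Alb with Afp, the Saa genes, Hp, Kng with Hrg, Ahsg and Fetub, the Mup genes, Hspa5, Hsp90b1, Herpud1, Stat3, Socs3, Myc and Egr1.

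Loci of plasma proteins made up 9 of the 12, and most entries of the list are such loci. Beside fibrinogen they were the Apoa1 apolipoprotein cluster, Apoe with Apoc1 and Apoc2, the Orm genes, Itih3 with Itih1, Serpina3m with Serpina3n, C3, Trf and Igfbp1. Their windows held 132 hepatectomy peaks, of which 92 (69.7%) overlapped a 6 h sham peak, 28 (21.2%) a 48 h hepatectomy peak and 15 (11.4%) a 48 h sham peak. A silenced 6 h peak was found at 17 (12.9%) and a basal peak at 4 (3.03%). For all autosomal peaks of the library those shares were 77.0%, 29.0%, 20.1%, 19.0% and 11.0%. Without the fibrinogen window the plasma protein loci are 8 windows of 10 to 17 peaks.

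The Apoa1, Apoc3, Apoa4 and Apoa5 window on chromosome 9 (46000001 to 46100000) codes for apolipoproteins that carry and regulate lipids in plasma. At 6 h it had 17 hepatectomy and 22 sham peaks, the second highest sham number. At 48 h it had 7 and 3 peaks, with 3 in the silenced 6 h list and none in basal liver. Its best peak, at 46076210 to 46076934 (rank 1180), was also called in the 6 h sham, silenced 6 h and both 48 h lists. Both lists of 6 h thus crowded this window, with the sham list ahead.

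The Apoe window on chromosome 7 (20200001 to 20300000), home of the ligand for lipoprotein uptake, had 11 hepatectomy and 13 sham peaks at 6 h, 1 silenced peak and 1 basal peak. The Serpina3n window on chromosome 12 (105600001 to 105700000), with acute-phase protease inhibitors, had 14 and 11 peaks at 6 h, 2 silenced and 1 basal. The Orm window on chromosome 4 (63000001 to 63100000), with the acute-phase orosomucoids, had 11 and 9, 3 silenced and 1 basal. Of their 6 h hepatectomy peaks, none in the Apoe window and 1 in each of the others overlapped a basal peak, where 7.95% of the peaks of all dense windows did.

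The Itih3 and Itih1 window on chromosome 14 (31700001 to 31800000) encodes heavy chains that bind hyaluronan. It had 12 hepatectomy and 10 sham peaks at 6 h and 2 hepatectomy peaks at 48 h, and none in basal, 48 h sham or silenced livers. The window of C3, the central complement protein, on chromosome 17 (57300001 to 57400000) had 11 and 11 at 6 h, 2 silenced and 1 basal. The Trf window on chromosome 9 (103100001 to 103200000), with the iron carrier transferrin, had 10 and 10, 1 silenced and 1 basal. The Igfbp1 window on chromosome 11 (7000001 to 7100000), in which the gene of an insulin-like growth factor binding protein begins, had 11 and 11, 2 silenced and none basal. Among the 9 plasma protein windows, 1, that of Itih3 and Itih1, had no silenced 6 h peak. Of all dense windows 11.2% had none, and of all autosomal windows with a 6 h hepatectomy peak 61.1% had none.

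Hyou1 encodes an ER chaperone and is a classical gene of the unfolded protein response. Its window on chromosome 9 (44100001 to 44200000) had 10 peaks in either 6 h list, 7 and 6 at 48 h, 5 in basal liver and 6 in the silenced 6 h list. It also had 2 peaks in the silenced basal list and 1 in the silenced 48 h list. Its median score of 51.39 was the highest of the 134 windows, and an unnamed window on chromosome 4 (149100001 to 149200000) had 47.29. The best peak of the Hyou1 window, at 44186663 to 44188353 (score 730.13), ranked 6 in the whole list and was called in all 8 lists. All 10 hepatectomy peaks had a 6 h sham counterpart, 6 had a silenced 6 h one and 5 a basal one. Over all autosomal peaks of the library those shares were 77.0%, 19.0% and 11.0%. The peaks next in score, at 44133997 to 44135209 (rank 60) and 44142395 to 44143216 (rank 992), were also called in basal liver and in the silenced 6 h list.

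P4hb encodes protein disulfide isomerase, the ER enzyme that forms disulfide bonds, and was named after its values were seen. Its window on chromosome 11 (120400001 to 120500000) had 15 and 14 peaks at 6 h after hepatectomy and sham. It had 6 and 8 at 48 h, 2 in basal liver, 4 in the silenced 6 h list and 2 in each of the other silenced lists. The best peak, at 120433946 to 120435362 (rank 51), was called in all 8 lists. Only 3 of the 1585 peaks were: this one, that in the Hyou1 window and one on chromosome 3 (89096852 to 89098278, rank 78). That is 0.189% of the peaks inside the windows, against 0.242% (49 peaks) outside them.

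Malat1 and Neat1, long noncoding RNAs of the nucleus, share a window on chromosome 19 (5800001 to 5900000). It had 18 hepatectomy and 16 sham peaks at 6 h, 6 and 5 at 48 h, 2 in basal liver and 4 in the silenced 6 h list. The best peak lay at 5846574 to 5847497 (rank 157). It and the neighbour at 5847958 to 5850634, the widest peak of all dense windows at 2677 bp, were called in all 5 unsilenced lists and in the silenced 6 h list. Of the 18 peaks, 10 overlapped a 6 h sham peak, where 77.0% of all autosomal peaks of the library did.

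Cebpb encodes C/EBP beta, a transcription factor of the acute-phase response. Its window on chromosome 2 (167500001 to 167600000) had 11 hepatectomy and 6 sham peaks at 6 h, 1 and 2 at 48 h, 1 basal and 2 silenced. The next window (167600001 to 167700000) had 18 and 19 at 6 h, 6 and 5 at 48 h, 1 basal and 6 silenced. The pair thus held 29 hepatectomy and 25 sham peaks over their joined length, but the sham peaks were concentrated in the second window.

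The 15 windows with most peaks are 12 with 15 or more and the first 3, by chromosome and position, of 10 tied at 14. Among those not yet given, these gene names were added after the values were seen. The window of Sdc4, a cell surface proteoglycan, on chromosome 2 (164200001 to 164300000) had 16 hepatectomy and 15 sham peaks at 6 h, 3 silenced and none basal. The window of Lcn2, the acute-phase protein lipocalin 2, on chromosome 2 (32200001 to 32300000) had 14 and 10 peaks at 6 h, 3 silenced and none basal. Its best peak, at 32243052 to 32245172 (rank 246), was called in both 48 h lists and in the silenced 6 h list but not in basal liver. The median score of its peaks, 12.455, was the third lowest of the 134 windows. The window of Abca1, a cholesterol exporter, on chromosome 4 (53100001 to 53200000) had 14 and 14, 4 silenced and 1 basal.

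The other 7 of the 15 windows, not given above and left without a gene name, had from 14 to 19 hepatectomy peaks. The one with 19 lay on chromosome 8 (87500001 to 87600000), with 13 sham peaks at 6 h, 3 silenced and 2 basal. A window on chromosome 5 (136100001 to 136200000) had 15 and 13 at 6 h, 4 silenced and none basal. Those on chromosome 3 (97400001 to 97500000), chromosome 14 (70700001 to 70800000) and chromosome 1 (40200001 to 40300000) had 16, 15 and 14 hepatectomy and 11 sham peaks each, and no basal peak. The window on chromosome 8 (129100001 to 129200000) had 15 and 14 at 6 h and 3 basal peaks. That on chromosome 15 (58800001 to 58900000) had 17 and 16 at 6 h and 5 basal peaks, the highest basal number, shared with the Hyou1 window. Its best peak, at 58830494 to 58831614 (rank 231), was called in all 5 unsilenced lists.

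Further windows with known genes, also named after the fact, had like numbers. A pair of windows with histone genes on chromosome 13 (23600001 to 23700000 and 23800001 to 23900000) held 24 hepatectomy and 25 sham peaks at 6 h, 4 silenced and none basal. The window of Tat, an amino acid enzyme of hepatocytes, on chromosome 8 (112500001 to 112600000) had 12 and 11, 2 silenced and none basal. That of Mcl1, a survival protein of the BCL2 family, on chromosome 3 (95400001 to 95500000) had 11 and 11, 1 silenced and none basal. That of the clock gene Per1 on chromosome 11 (68900001 to 69000000) had 10 and 7, 4 silenced and 1 basal.

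Hepatectomy and sham peaks crowded many of the same windows at 6 h. Of the 134 windows, 88 also held 10 or more sham peaks, against 2.03% of all autosomal windows with a hepatectomy peak. Of those 8146 windows, 3195 held 1 hepatectomy peak, so these shares do not compare windows of like peak number. Windows with 9 hepatectomy peaks, just outside the rule, held a mean of 8.51 sham peaks. Among the 134, the sham number was above the hepatectomy number in 25 windows, equal in 29 and below in 80. Choosing the windows by hepatectomy peaks tilts this: in the 165 windows with 10 or more sham peaks the ratio of hepatectomy to sham peaks was 0.892, in the 134 it was 1.11, and in the 88 that met both rules it was 1.02. At 48 h, which neither choice used, the ratio of hepatectomy to sham peaks was 1.41 in the windows chosen by either list, and 1.56 over the windows outside both sets.

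**Figure D3:**
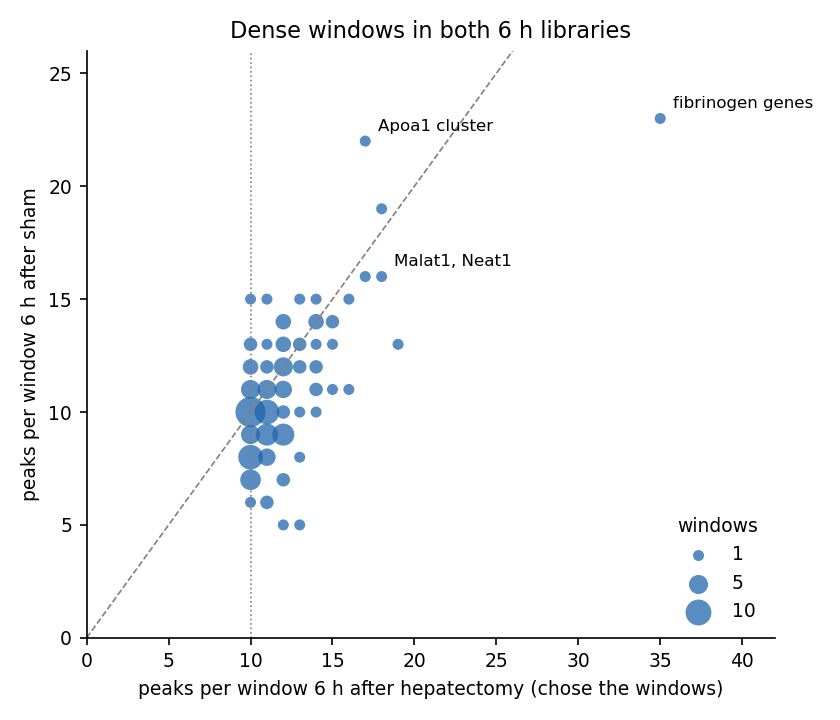
Peaks per dense window 6 h after hepatectomy (x axis, which chose the windows, minimum of 10 as a dotted line) against 6 h after sham (y axis), with the size of a circle for the number of windows and a dashed line where both are equal. The fibrinogen window stands apart at 35 and 23 peaks, and the Apoa1 window lies above the line at 17 and 22.

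The ratio of sham to hepatectomy peaks ran from 0.385 to 1.5. It was lowest on chromosome 2 (167100001 to 167200000, 13 hepatectomy and 5 sham peaks), then on chromosome 12 (110000001 to 110100000, 12 and 5). The Cebpb window and that on chromosome 9 (57100001 to 57200000) followed with 11 and 6 each. It was highest on chromosome 14 (26300001 to 26400000, 10 and 15), then on chromosome 8 (116600001 to 116700000, 11 and 15) and on chromosome 6 (90400001 to 90500000) and chromosome 18 (12800001 to 12900000) with 10 and 13 each. With 1 library per operation these extremes were not tested.

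Most peaks of the dense windows had a 6 h sham counterpart. An overlap of 1 bp or more was found for 1209 of the 1585 peaks (76.3%, 74.1 to 78.4%), against 77.0% of all autosomal peaks of the library and 77.1% of those outside the windows. The difference of inside minus outside was -0.82 percentage points (95% interval -3.05 to 1.29). When 50% or more of each overlapping peak had to be shared, 67.8% of the peaks had a sham counterpart and the difference was -2.96 points (-5.39 to -0.62). Both intervals treat peaks as independent, which neighbours in 1 window are not. In 10 windows all hepatectomy peaks had a sham counterpart, and the lowest share in a window was 38.5%. In the other direction 1210 of the 1429 sham peaks in the windows (84.7%) lay on a hepatectomy peak, against 73.3% outside, a direction that the choice of windows favours.

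In the silenced 6 h library a minority of the peaks had a counterpart. There 291 of the 1585 peaks had one (18.4%, 16.5 to 20.4%), against 19.0% of all and 19.1% outside, a difference of -0.71 percentage points (-2.62 to 1.34). With 50% of both peaks required the share was 9.97% and the difference -2.08 points (-3.54 to -0.45), again with neighbouring peaks treated as independent. All 302 silenced 6 h peaks in the windows lay on an unsilenced 6 h hepatectomy peak. A window kept from 0 to 6 of its peaks, with a median of 2, and the median share kept was 18.2%. The highest share, 60.0%, was found in the Hyou1 window and in a window on chromosome 4 (149100001 to 149200000), with 6 of 10 peaks each. The silenced basal and silenced 48 h lists overlapped 8 and 5 of the peaks (0.505% and 0.315%, against 0.541% and 0.316% of all).

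Fewer peaks of the windows than of the rest were found in basal liver and 48 h after hepatectomy. A basal counterpart was found for 126 peaks (7.95%, 6.67 to 9.39%), against 11.0% of all and 11.2% outside, a difference of -3.25 points (-4.56 to -1.75). At 48 h after hepatectomy 403 peaks had one (25.4%, 23.3 to 27.6%), against 29.0% of all and 29.3% outside, a difference of -3.84 points (-6.01 to -1.55). With 50% of both peaks required the shares fell to 2.40% for basal liver and 12.4% for 48 h after hepatectomy, with differences of -2.94 points (-3.66 to -2.01) and -4.53 points (-6.14 to -2.74). For the 48 h sham list it was 302 peaks (19.1%, 17.1 to 21.1%), against 20.1% of all and 20.2% outside, a difference of -1.13 points (-3.07 to 0.95). Over 10 equal classes of the list by score the mean difference was -3.24 points for basal liver and -3.94 points for 48 h after hepatectomy. Peaks inside had the lower share in 9 of 10 classes in either case. These intervals treat peaks as independent, which neighbours in 1 window are not, and 1 library per condition allows no test of the condition. Choosing windows by many peaks of the 6 h hepatectomy library can itself lower the shares found in other lists. How far it did so was not tested.

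**Figure D4:**
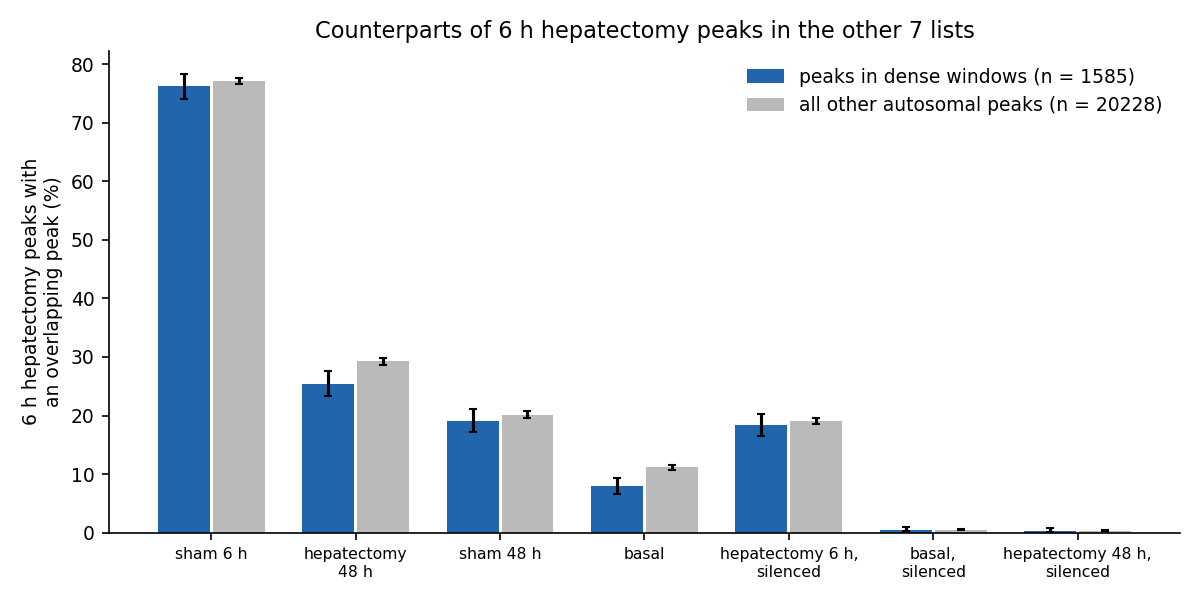
Share of 6 h hepatectomy peaks with an overlapping peak (y axis, percent) in each of the other 7 lists (x axis), for 1585 peaks in dense windows (blue) and 20228 other autosomal peaks (grey), with Clopper-Pearson 95% intervals as error bars. Blue and grey bars are near each other for 6 h sham and silenced 6 h, at 76.3% and 77.1% and at 18.4% and 19.1%, and blue is lower for basal liver and 48 h after hepatectomy.

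By pattern, the largest group, both inside and outside the windows, was seen at 6 h alone. Of the 1585 peaks, 738 (46.6%, 44.1 to 49.1%) had a sham counterpart at 6 h but none in basal liver or at 48 h, against 43.5% outside the windows. Every dense window held at least 1 of them, but each had 10 or more peaks among which to hold one. A further 354 peaks (22.3%) were called in no other list, against 21.1% outside. Peaks called in all 5 unsilenced lists numbered 105 (6.62%, against 8.60% outside). Of those 105, 89 also had a silenced 6 h counterpart, against 1434 of 1740 outside. In 3 windows no hepatectomy peak had a counterpart in basal liver, at 48 h or in the silenced 6 h list. These lay on chromosome 1 (157600001 to 157700000 and 193400001 to 193500000) and chromosome 9 (57100001 to 57200000), with 11 hepatectomy peaks each and 9, 10 and 6 sham peaks. The share of such windows among all autosomal windows was not counted. Taken 1 list at a time, from 46.1% (48 h hepatectomy) to 75.1% (basal) of all windows with a 6 h hepatectomy peak held no peak of these lists.

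Inside a dense window the highest-scoring peak was most often the one seen elsewhere. The best peak of the window had a silenced 6 h counterpart in 101 of 134 windows (75.4%, 67.2 to 82.4%), the second in 76 (56.7%) and the third in 44 (32.8%). Of the peaks ranked ninth and of those ranked 10 none had one. Basal liver showed the same order, with 58 (43.3%), 27 (20.1%) and 14 (10.4%) for the first 3 ranks. At 48 h the best peak was found in 96 windows after hepatectomy (71.6%) and in 94 after the sham operation (70.1%). This order by score was not particular to the dense windows. Among peaks outside them, the silenced 6 h share rose from 0.80% in the lowest of 10 equal score classes to 87.7% in the highest. The basal share rose from 0.85% to 64.7% and the 6 h sham share from 49.7% to 99.9%.

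The 6 h sham list kept far more of the lower ranks. It had a counterpart for the best peak in 132 windows (98.5%), for the peak ranked 5 in 116 (86.6%) and for the peak ranked 10 in 83 (61.9%). Of the 245 peaks ranked 11 and lower, 134 (54.7%) had a sham counterpart, 17 (6.94%) one at 48 h after hepatectomy, 3 (1.22%) a silenced 6 h one and none a basal one. The median rank in the whole list was 1641.5 for best peaks and 19676 for those ranked 11 and lower, so the rank in the window follows that in the list.

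**Figure D5:**
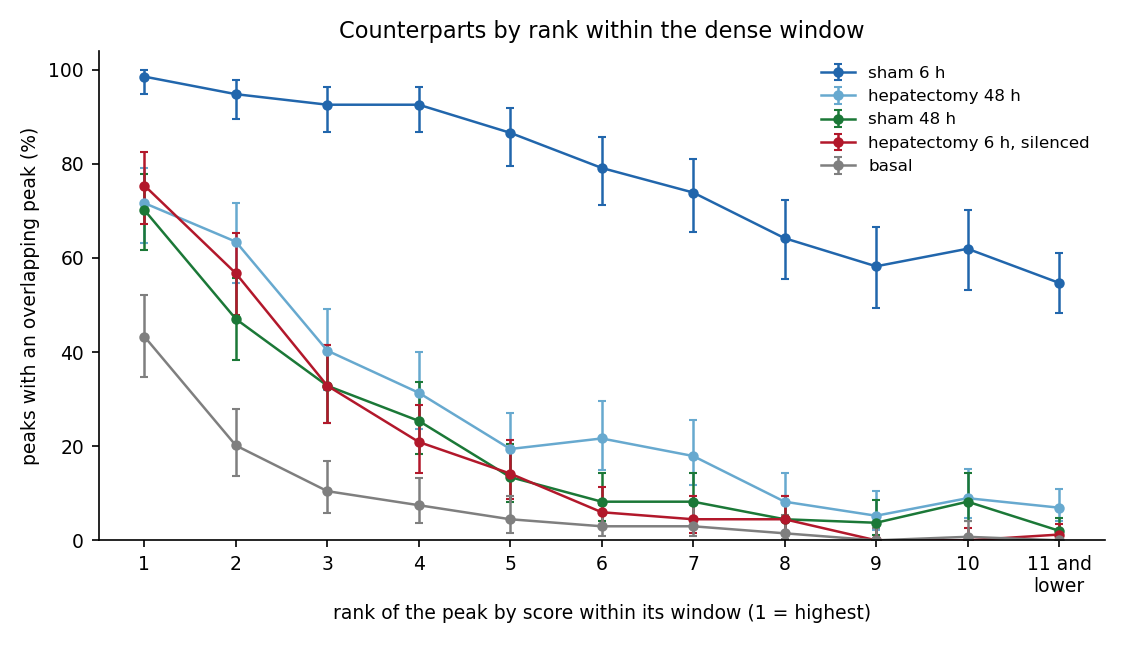
Share of 6 h hepatectomy peaks with an overlapping peak (y axis, percent) by rank of score within their dense window (x axis, 1 is highest, n = 134 for ranks 1 to 10 and 245 beyond), 1 line per list, with Clopper-Pearson 95% intervals. The sham 6 h line runs from 98.5% to 54.7%, and the silenced 6 h line runs from 75.4% to 1.22%.

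Peak numbers were lower in the silenced lists, both inside and outside the windows. On the log2 scale, the unsilenced peak number divided by the silenced one was 3.76 inside and 3.81 outside in basal liver, 2.39 and 2.34 at 6 h after hepatectomy, and 5.88 and 6.18 at 48 h after it. Inside minus outside was -0.10 ± 0.18 (SD, n = 3 states). An exact permutation test over 3 states cannot give a p below 0.25, so no test bears on this difference. The pair at 6 h holds the list that chose the windows, and the other pairs rest on 9 and 7 silenced peaks inside.

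Of the 134 windows, 121 stood alone and 13 formed 6 blocks of neighbours. The longest block, on chromosome 8 (129100001 to 129400000), joined 3 windows with 42 hepatectomy and 37 sham peaks at 6 h, 18 and 14 at 48 h, 5 basal and 15 silenced 6 h peaks. The others joined 2 windows each. They lay on chromosome 2 at Cebpb, on chromosome 11 (120300001 to 120500000) at P4hb with 26 and 26 peaks at 6 h, and on chromosome 11 (68800001 to 69000000) at Per1 with 22 and 16. The last were on chromosome 4 (150100001 to 150300000) with 22 and 21 and on chromosome 17 (56200001 to 56400000) with 24 and 21. By chromosome, the dense windows held from 2.86% of the hepatectomy peaks (chromosome 10) to 11.8% (chromosome 8).

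At the threshold the windows changed smoothly. The 46 windows with 10 hepatectomy peaks had a mean of 9.5 sham peaks at 6 h (6 to 15), 2.02 silenced 6 h peaks and 1.07 basal peaks. The 94 windows with 9 hepatectomy peaks had 8.51 (4 to 14), 1.83 and 0.86.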

How the data were processed

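Per the submitters' processing notes, reads were processed with Bowtie2 and MACS 1.4.2 on mm9; no source used here states settings or the use of the input as control. Each list deposited by the authors gave chromosome, start, end, name and a score per peak. No source used here states the scale of this deposited score, so it ranked peaks within a list only. The basal input was not analysed here. Groups came from the sample titles, and starts were written 1-based.

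Peaks were assigned to 100 kb windows by midpoint, and windows with 10 or more 6 h hepatectomy peaks were kept. A counterpart was an overlap of at least 1 bp. Shares have Clopper-Pearson 95% intervals and differences of shares have Newcombe intervals. Before log2 ratios of peak numbers, 0.5 was added to each number. Python 3.11.15, NumPy 2.4.6, pandas 2.3.3, SciPy 1.17.1 and matplotlib 3.10.9 were used, and assignment and overlap were tested on simulated data. Alternatives changed the threshold, the start, width and choosing list of windows, the joining of peaks, the score cut, the chromosomes and the overlap.

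The windows, loci and comparisons were chosen with earlier results of these data known. Named were the 15 windows with most 6 h hepatectomy peaks, the 3 with most peaks in each longer list, the 3 highest and lowest ratios of sham to hepatectomy peaks, blocks of neighbours, and windows at listed liver loci. No annotation of mm9 was at hand. Gene names rest on general knowledge of that assembly and are unverified. They were also looked at against GRCm38 gene positions through a local offset between the builds. Windows whose only source of a name was that comparison, or whose gene lay at a border and was not in the locus list, were left unnamed. No converted coordinate and no distance to a gene is given. Upstream sequences were matched by symbol for 6 of 6 genes.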

Additional observations from a re-analysis of the deposited data

How the results depend on the processing

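The number of dense windows rose from 134 to 354 with 8 or more peaks and fell to 57 with 12 or more, 39 with windows of 50 kb, 85 with peaks within 500 bp joined and 9 with only the upper 50% of the peaks by score. It was 149 with windows shifted by 50 kb, 165 when chosen by 6 h sham peaks, and 134 with X and Y added. The number of peaks, 1585, became 3439 with 8 or more and 946 with joined peaks. Requiring each of the overlapping peaks to be covered by 50% or more lowered the shares with a counterpart to 67.8% for 6 h sham, 9.97% for silenced 6 h, 12.4% for 48 h hepatectomy, 13.2% for 48 h sham and 2.40% for basal liver. Joining peaks raised the silenced 6 h share to 20.6%. The differences between the windows and the rest stayed within the 95% intervals of the values given above in all 25 alternatives. That for the silenced 6 h list, whose interval spans 0, was 0.21 points with shifted windows, 0.37 points with joined peaks and -2.08 points (-3.54 to -0.45) with the stricter overlap. The stricter overlap also took the 6 h sham difference to -2.96 points (-5.39 to -0.62). Both intervals treat neighbouring peaks as independent, so they are likely too narrow to judge a difference from 0. The differences for basal liver and 48 h hepatectomy stayed below 0, from -4.44 to -2.80 and from -4.53 to -3.35 points. The silencing contrast kept its sign, from -0.41 to -0.10 on the log2 scale. No paired analysis was possible because no condition had replicates to pair by number; the 3 states with and without silencing were matched by state only. Unknown read depth limits all comparisons between lists.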

Other observations

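In the dense windows the silenced 6 h list was highest, with 7 peaks, on chromosome 4 (45400001 to 45500000), where 12 hepatectomy and 14 sham peaks were called at 6 h, 3 at 48 h after either operation and 1 in basal liver. The 48 h hepatectomy list was highest, with 8 peaks, on chromosome 5 (66400001 to 66500000), with 13 peaks in either 6 h list and 2 in basal liver. The best peak there, at 66404965 to 66405841, ranked 54 in the 6 h hepatectomy list. The 48 h sham list was highest, with 8 peaks, in the P4hb window and on chromosome 8 (129100001 to 129200000). A window on chromosome 3 (89000001 to 89100000) had 11 hepatectomy and 8 sham peaks at 6 h, 4 basal peaks, 2 in the silenced basal list and 1 in the silenced 48 h list.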
